A study of Mus musculus with 6 samples.

Results

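The 10 genes described here carry iron into cells, store it or let it out, and they were followed in the epididymal white fat of obese mice with and without CD44, a cell surface receptor for hyaluronan. The genes were taken by symbol: Tfrc, Slc11a2, Slc11a1, Hmox1, Fth1, Ftl1, Slc40a1, Heph, Hephl1 and Cp. All 10 were found among the 22322 genes of the deposited table, and all 10 passed the filter on low counts that left 13829 genes for testing. Messenger RNA was sequenced from 6 libraries, 3 from wild type and 3 from CD44-KO mice, all fed a high fat diet for 17 weeks. The labels name no strain, age or kind of knockout, and no group on another diet was analysed here. They do not say that each library is a separate mouse, so p-values measure the spread between these libraries.

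Cells take up iron bound to transferrin through the transferrin receptor, move it out of the endosome through a divalent metal transporter, and keep what is not used inside ferritin, a shell built of heavy and light chains. Ferroportin is the one known iron exporter of mammalian cells, and it works with copper-bearing ferroxidases that oxidise the iron as it leaves. In fat, macrophages are known for handling and recycling iron, while adipocytes also take it up and store it. Iron regulatory proteins tie these genes together by binding short RNA hairpins, the iron-responsive elements. A hairpin in the 5′ untranslated region governs translation, which RNA sequencing does not read, and hairpins in the 3′ untranslated region govern how long the messenger lasts.

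The hairpins are shown because they are the feature that sets apart the members under this shared control. In GENCODE M21 transcripts (GRCm38) of the deposited genes, untranslated regions were searched on the transcript strand for CNNNNNCAGTGN, a bulged C, 5 bases and the CAGTGN loop. A match was kept when the upper stem had 5 of 5 pairs and the lower stem at least 3 of 5 (G with T allowed). Capitals mark the bulged C and the loop, and each line runs 5′ to 3′.
Tfrc 3′ site 1, chr16:32631220-32631246, plus strand: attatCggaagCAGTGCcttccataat
Tfrc 3′ site 2, chr16:32631599-32631625, plus strand: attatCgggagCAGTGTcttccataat
Tfrc 3′ site 3, chr16:32631664-32631690, plus strand: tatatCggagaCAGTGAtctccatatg
Tfrc 3′ site 4, chr16:32631711-32631737, plus strand: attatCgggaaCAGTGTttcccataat
Fth1 5′ site, chr19:9982733-9982759, plus strand: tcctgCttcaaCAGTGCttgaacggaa
Ftl1 5′ site, chr7:45459780-45459806, minus strand: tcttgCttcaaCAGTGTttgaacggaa
Slc40a1 5′ site, chr1:45925466-45925492, minus strand: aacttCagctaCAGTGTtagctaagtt
Of the 10 members 4 held such a hairpin, 3 in the 5′ and 1 in the 3′ untranslated region. Among all genes of the table it was found in 9 of 20800 with a 5′ region (0.0433%) and in 36 of 20922 with a 3′ region (0.172%). Because the pattern searched for is that of the iron-responsive element itself, these counts describe the members and are not a test. The 12 letters without the stem rule were far more common, in 12.2% and 36% of genes. Tfrc was searched over 2458 bases of 3′ region, and the 3′ region of Slc11a2 held the 12 letters but no hairpin that met the stem rule.

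The libraries held 15543317 to 18765009 expected counts each. Cd44 stood at 182, 570 and 313 CPM (library-scaled counts by TMM, the scale used below) in wild type replicates 1, 2 and 3. CD44-KO replicates 1, 2 and 3 held 1.66, 3.00 and 2.20 CPM of it, which fits the labels. Values of a gene are given in this order of replicates throughout. All 13 markers of mature adipocytes were detected in every library. Their summed level was 11720 to 31209 CPM in the wild type libraries, against 36245 to 55835 in the knockouts. Of these markers 12 had a positive log2 fold change. Cfd alone stood at 740, 104 and 249 CPM in wild type, against 8013, 6802 and 14872 in the knockouts. With Cfd left out, the summed ranges overlap. Lep went the other way, at 4475, 1834 and 2471 CPM in wild type against 1147, 755 and 708 in the knockouts. The 15 pan-macrophage markers together ran from 4595 to 10900 CPM in wild type. They stood at 5054, 282 and 930 in CD44-KO replicates 1 to 3, so by this list CD44-KO replicate 1 lay inside the wild type range. That place rests on Lyz2, the most abundant of the 15 in every library. Lyz2 stood at 1767, 3996 and 2766 CPM in wild type, against 2309, 98.1 and 408 in the knockouts. With Lyz2 left out, CD44-KO replicate 1 lies just below wild type replicate 1. The 8 markers of iron-handling resident macrophages summed to 649 to 971 CPM in wild type, against 473, 121 and 266 in the knockouts. The 12 markers of lipid-associated macrophages summed to 20714 to 39997 CPM in wild type, against 16990, 8211 and 8693, with Lpl in that list being an adipocyte gene too. By these 2 sums all 3 knockouts, replicate 1 included, lay below every wild type library. In the lipid-associated list the place of CD44-KO replicate 1 rests on Lpl and Ctsd. They stood at 10101 and 4539 CPM in wild type replicate 1, against 7170 and 3227 in CD44-KO replicate 1. With Lpl and Ctsd left out, CD44-KO replicate 1 lies above wild type replicate 1. Gpnmb, Spp1, Ctsl and Cd9 were higher in CD44-KO replicate 1 than in wild type replicate 1, and the rest of that list was lower. CD44-KO replicate 2 held 11940 CPM of epididymis epithelium markers, against 12.9 or less in the other 5 libraries. Hepatocyte markers stood at 563 CPM in CD44-KO replicate 3. Values without single libraries are given where leaving 1 out changes a call.

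Of the 10 iron genes, Cp rose and Hephl1 fell in CD44-KO fat, both of them ferroxidase genes of the export step. Calls rest on edgeR's quasi-likelihood test with Benjamini-Hochberg adjustment over all 13829 genes at an adjusted p under 0.05, by which 1.74% of all genes were called higher and 0.882% lower (2.62% in all). At an unadjusted p under 0.05 there were 4 of the 10 members, beside 31% of all genes. The members' log2 fold changes had a median of -0.48, beside 0.03 over all genes tested. In 6 of the 10 the libraries of the genotypes did not overlap in CPM, beside 37.8% of all genes. Those 6 were Slc11a1, Fth1, Ftl1, Heph, Hephl1 and Cp.

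**Figure D1:**
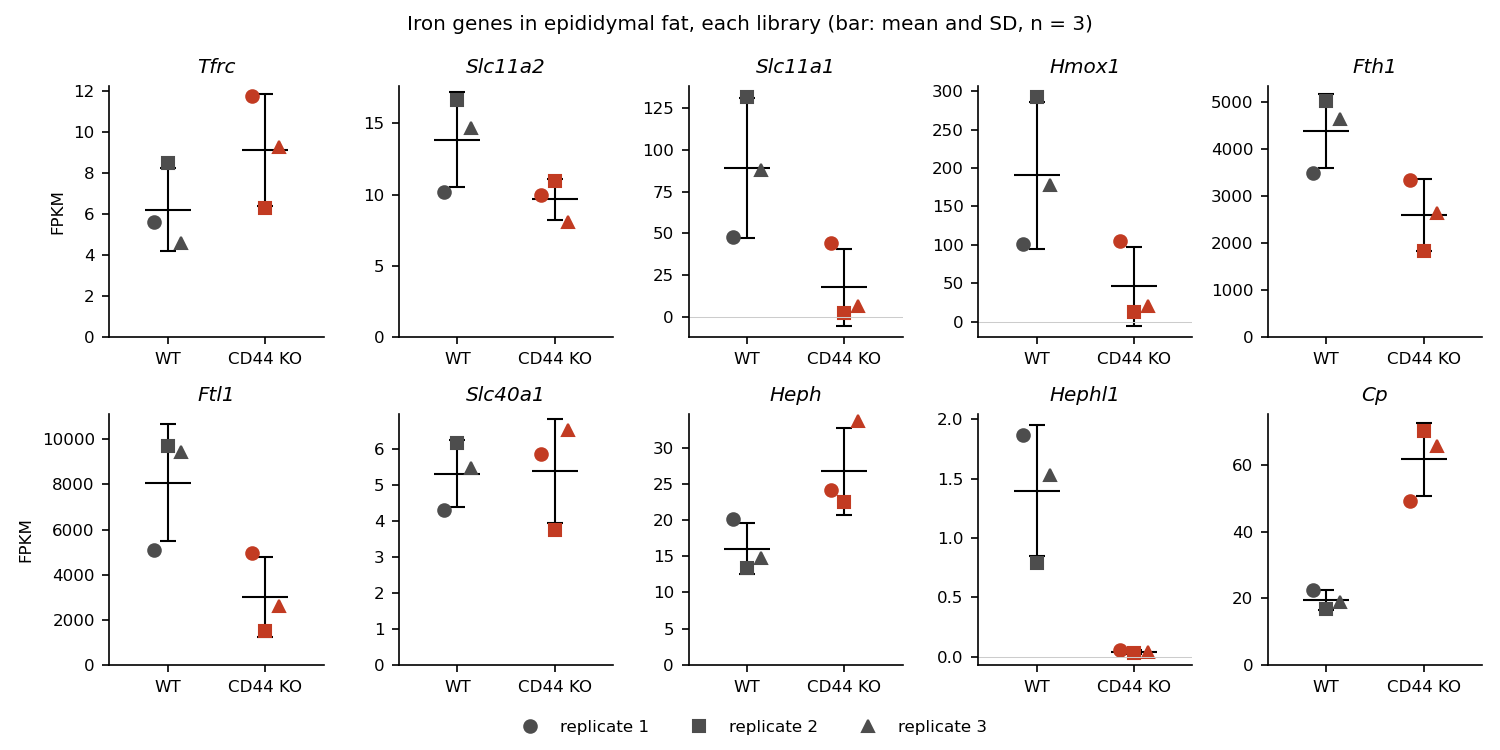
FPKM of the 10 iron genes in each library of wild type (WT, dark) and CD44-KO (red) fat, 1 panel and 1 linear axis per gene, with points for libraries and black bars for the mean and SD of 3. Cp in CD44-KO lies at 49.4 to 70.2 above every wild type library, Hephl1 lies at 0.03 to 0.06 below them, and CD44-KO replicate 1 sits beside wild type replicate 1 for Slc11a1, Hmox1 and Ftl1.

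Levels of different genes can be set side by side in FPKM, which is scaled for length. In wild type fat the order was Ftl1 (8080 ± 2584 FPKM, SD, n = 3), Fth1 (4389 ± 789), Hmox1 (190 ± 95.6), Slc11a1 (89.2 ± 42.0), Cp (19.5 ± 2.91), Heph (16.1 ± 3.57), Slc11a2 (13.9 ± 3.31), Tfrc (6.22 ± 2.03), Slc40a1 (5.30 ± 0.935) and Hephl1 (1.40 ± 0.552). Libraries of neighbours overlapped for Hmox1 and Slc11a1, for Cp, Heph and Slc11a2, and for Tfrc and Slc40a1. In CD44-KO fat Cp came next after the ferritins at 61.8 ± 10.9 FPKM with Ftl1 (3018 ± 1770) and Fth1 (2602 ± 764), which overlapped each other there. Hmox1 was at 46.4 ± 51.3 FPKM, Slc11a1 at 17.6 ± 23 and Hephl1 at 0.0433 ± 0.0153. From Cp down to Slc40a1 the CD44-KO ranges of each pair of neighbours overlapped. Iron messengers thus spanned from among the most abundant in the tissue to nearly undetected.

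Cp (ENSMUSG00000003617, plus strand of chromosome 3 from 19957054 to 20009145 in GRCm38) encodes ceruloplasmin, the copper ferroxidase of plasma that also exists in a membrane-anchored form. The wild type libraries held 67.2, 56.1 and 63.9 CPM of it and the knockouts 167, 209 and 186. Every knockout library lay well above every wild type one, and the spread within each genotype was small. Cp rose 3.00-fold (95% interval 2.30 to 3.93), or by 1.59 on the log2 scale (SE 0.16, edgeR adjusted p 0.0221). The fold barely moved when 1 library was left out (log2 1.5 to 1.66). The edgeR adjusted p was 0.1 without wild type replicate 2, 0.189 without wild type replicate 3 and 0.0812 without CD44-KO replicate 3, while the number of genes called among all tested also dropped to 9, 0 and 7 in those fits. Liver is a main source of ceruloplasmin. The 8 hepatocyte markers summed to 2.59 to 5.95 CPM in wild type, against 6.53, 82.6 and 563 in the knockouts. Alb, the albumin gene and the most abundant of them in the knockouts, stood at 1.59, 0.377 and 0.261 CPM in the wild type libraries, against 5.34, 66.1 and 389 in the knockouts. The 8 mesothelial markers also stood higher in CD44-KO, at 41.6 to 70.3 CPM against 4.8 to 14.8. The part of either list in the Cp result was not tested.

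The transcripts counted for Cp also differed in length between libraries. A gene's count divided by its FPKM and the library total gives the length the authors' tools assigned to it. For Cp this was 3019, 3340 and 3436 bases in the wild type libraries, against 3420, 2791 and 2812 in the knockouts. The lowest values were those of CD44-KO replicates 2 and 3, and CD44-KO replicate 1 lay with wild type replicates 2 and 3. For comparison it stayed at 1569 bases for Hmox1 in every library and at 4851 to 4891 for Tfrc.

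Hephl1 (ENSMUSG00000031936, minus strand of chromosome 9 from 15051841 to 15112108), which encodes zyklopen, a membrane ferroxidase related to ceruloplasmin and hephaestin, was nearly absent from CD44-KO fat. The wild type libraries held 164, 77 and 151 expected counts and the knockouts 5, 3 and 3, or 9.67, 4.15 and 7.88 against 0.297, 0.180 and 0.194 CPM. The wild type level was itself low and the knockout level is a handful of reads. Hephl1 fell 31.3-fold (95% interval 13.7 to 71.5), a log2 difference of -4.97 (SE 0.50, edgeR adjusted p 0.0216). The value ran from -5.25 to -4.69 with 1 library left out. The edgeR adjusted p was 0.0553 without wild type replicate 2, 0.189 without wild type replicate 3 and 0.0844 without CD44-KO replicate 3. CD44-KO replicate 1 had 7.15% of the CPM of the lowest wild type library. The 8 summed fibroblast and progenitor markers stood lower in all 3 knockouts, at 2597, 829 and 1736 CPM against 4666 to 6518 in wild type. Col3a1 was the most abundant of them in wild type. Of the 8, 7 had a negative log2 fold change, Dpp4 stood at 0.31, and Dcn overlapped between genotypes. The part of these markers in the Hephl1 result, like that of the macrophage markers, was not tested.

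Heph (ENSMUSG00000031209, plus strand of chromosome X from 96455359 to 96574485) encodes hephaestin, the other membrane ferroxidase of the family. Its level was 91.0, 61.2 and 66.4 CPM in the wild type libraries, against 110, 111 and 155 in the knockouts. The knockout libraries were all above the wild type ones, the nearest pair being wild type replicate 1 and CD44-KO replicate 1. The 1.72-fold difference (95% interval 1.18 to 2.51, log2 0.78, SE 0.23) did not pass, at an edgeR adjusted p of 0.0928. With DESeq2 it passed at an adjusted p of 0.0252. Of the 3 ferroxidase genes, 1 was thus called higher, 1 lower and 1 was not called by edgeR. The summed mature adipocyte markers also stood higher in every knockout library than in any wild type one, though not with Cfd left out. The part of these markers in the Heph and Cp values was not tested.

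Slc40a1 (ENSMUSG00000025993, minus strand of chromosome 1 from 45908068 to 45926523) encodes ferroportin itself. The wild type libraries held 14.3, 20.7 and 18 CPM and the knockouts 19.5, 13.5 and 22.1, so the genotypes overlapped fully. The log2 fold change was 0.06 (SE 0.24, edgeR adjusted p 0.888), and the 95% interval of the fold, 0.695 to 1.56, bounds what these libraries could have missed. Its sign turned under 4 of 13 alternatives, with values down to -0.10.

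**Figure D2:**
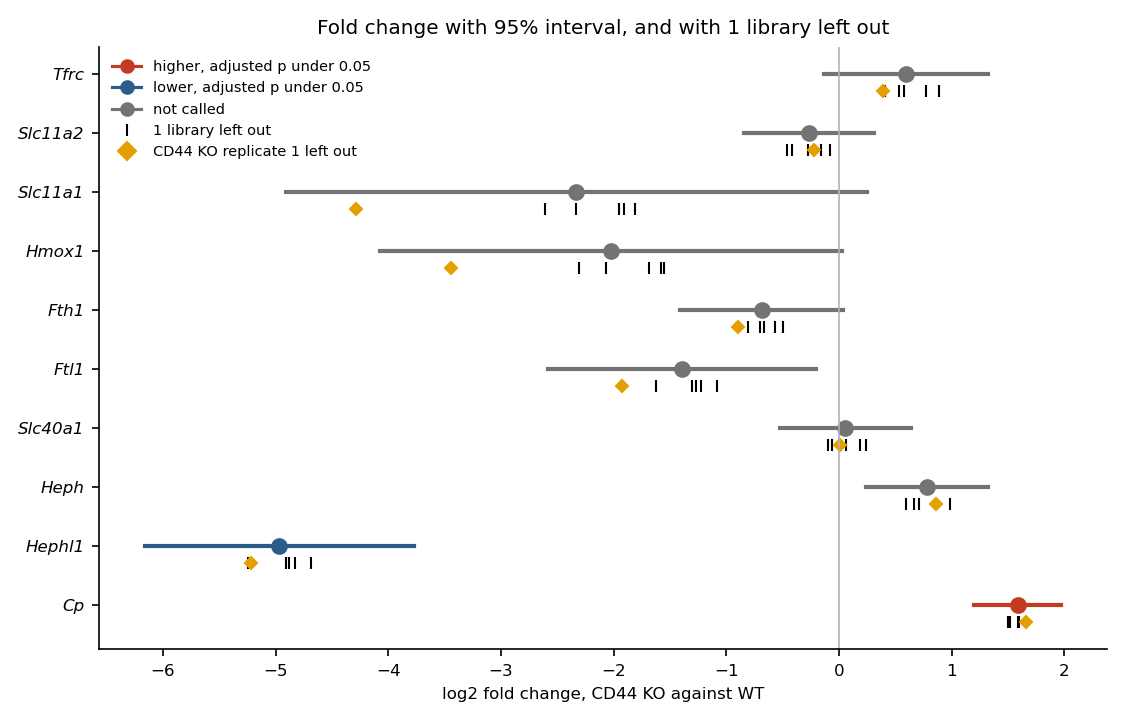
Log2 fold change of CD44-KO against wild type for the 10 iron genes (circles) with 95% intervals (lines), called higher in red, called lower in blue and not called in grey. Ticks under each line are the 6 fits with 1 library left out, and the diamond is the fit without CD44-KO replicate 1, which moves Slc11a1 to -4.29, Hmox1 to -3.44 and Ftl1 to -1.92 and leaves Cp and Hephl1 near their values.

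Ferritin messengers were among the most abundant of wild type fat. By FPKM, Ftl1 ranked 5, 2 and 3 among all genes in the wild type libraries, against 11, 33 and 19 in the knockouts. Fth1 ranked 9, 7 and 6, against 15, 25 and 18. Together they held 0.805%, 1.38% and 1.32% of all counts in the wild type libraries, against 0.781%, 0.304% and 0.490% in the knockouts.

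Ftl1 (ENSMUSG00000050708, minus strand of chromosome 7 from 45457944 to 45459884) encodes the light chain, which favours the laying down of the iron core. The wild type libraries held 4857, 9360 and 8954 CPM and the knockouts 4749, 1547 and 2532. The genotypes were separate only narrowly, since CD44-KO replicate 1 had 97.8% of the CPM of wild type replicate 1. The log2 fold change was -1.39 (SE 0.50, fold 0.381, 95% interval 0.167 to 0.870), with an unadjusted p of 0.0284 and an edgeR adjusted p of 0.125. Without CD44-KO replicate 1 it was -1.92 and passed (edgeR adjusted p 0.0451). Reads of Ftl1 can be shared with processed copies elsewhere in the genome: its expected counts were not whole, and the copy Ftl1-ps1 held 26.9 to 129 counts, 0.0693% to 0.104% of those of Ftl1.

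Fth1 (ENSMUSG00000024661, plus strand of chromosome 19 from 9980598 to 9985098) encodes the heavy chain, the one with ferroxidase activity. Its level was 3070, 4396 and 3946 CPM in the wild type libraries, against 2980, 1707 and 2400 in the knockouts. CD44-KO replicate 1 again lay just under wild type replicate 1. The log2 fold change of -0.69 (SE 0.30, fold 0.621, 95% interval 0.376 to 1.03) did not pass (edgeR adjusted p 0.175), and none of the 6 fits with 1 library left out passed it.

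The balance of the 2 chains differed between libraries. Per length, Ftl1 was 1.46, 1.93 and 2.04 times Fth1 in the wild type libraries, against 1.48, 0.820 and 0.988 times in the knockouts. Light chain messengers outnumbered heavy chain ones in all wild type libraries and in CD44-KO replicate 1, and did not in the other 2. The difference in the log2 ratio of Fth1 to Ftl1 was 0.75 (-0.84 ± 0.26 in wild type, -0.09 ± 0.44 in CD44-KO, SD, n = 3). An exact two-sided permutation test gave p = 0.2, where 3 against 3 libraries cannot go below 0.1.

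Slc11a1 (ENSMUSG00000026177, plus strand of chromosome 1 from 74375195 to 74386062) encodes a metal transporter of the phagosome of macrophages. Slc11a1 and Hmox1 broadly followed the macrophage markers from library to library, though not in exact proportion. Slc11a1 stood at 108, 303 and 200 CPM in the wild type libraries, against 101, 5.17 and 15.7 in the knockouts. CD44-KO replicate 1 was close to wild type replicate 1 and the other 2 were far below. The log2 fold change was -2.33 (SE 1.07, fold 0.199, 95% interval 0.0333 to 1.19), and the edgeR adjusted p was 0.19. Without CD44-KO replicate 1 the log2 fold change was -4.29 and passed (edgeR adjusted p 0.0246). Across the 6 libraries Slc11a1 spanned 58.7-fold and the summed pan-macrophage markers 38.6-fold. Set against that sum, Slc11a1 was 2.36%, 2.78% and 2.52% in the wild type libraries, against 1.99%, 1.83% and 1.69% in the knockouts, a span of 1.65-fold. Every knockout library was thus below every wild type one by this measure, a difference that was not tested. In whole tissue, fewer macrophages and less RNA per macrophage cannot be told apart.

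Hmox1 (ENSMUSG00000005413, plus strand of chromosome 8 from 75093621 to 75100589) encodes haem oxygenase 1, which frees the iron of haem. The wild type libraries held 157, 457 and 272 CPM and the knockouts 164, 20.8 and 33.7. CD44-KO replicate 1 lay above wild type replicate 1, so the genotypes overlapped. The log2 fold change was -2.02 (SE 0.85, fold 0.246, 95% interval 0.0595 to 1.02, edgeR adjusted p 0.164), and without CD44-KO replicate 1 it was -3.44 and passed (edgeR adjusted p 0.0239). Against the summed pan-macrophage markers Hmox1 was 3.42%, 4.19% and 3.44% in the wild type libraries, against 3.24%, 7.38% and 3.62% in the knockouts. CD44-KO replicate 2, the library with epididymis transcripts, was the highest by this measure. Erythroid markers, whose haemoglobin messengers report blood left in the tissue, overlapped between genotypes at 712 to 3909 CPM in wild type and 1332 to 1588 in CD44-KO.

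Other members were set against the same sum. Against it Ftl1 spanned 6.38-fold and Fth1 15-fold, while their own CPM spanned 6.05-fold and 2.58-fold. Cp spanned 144-fold against the sum and 3.73-fold in its own CPM, and Hephl1 35.8-fold and 53.7-fold.

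**Figure D3:**
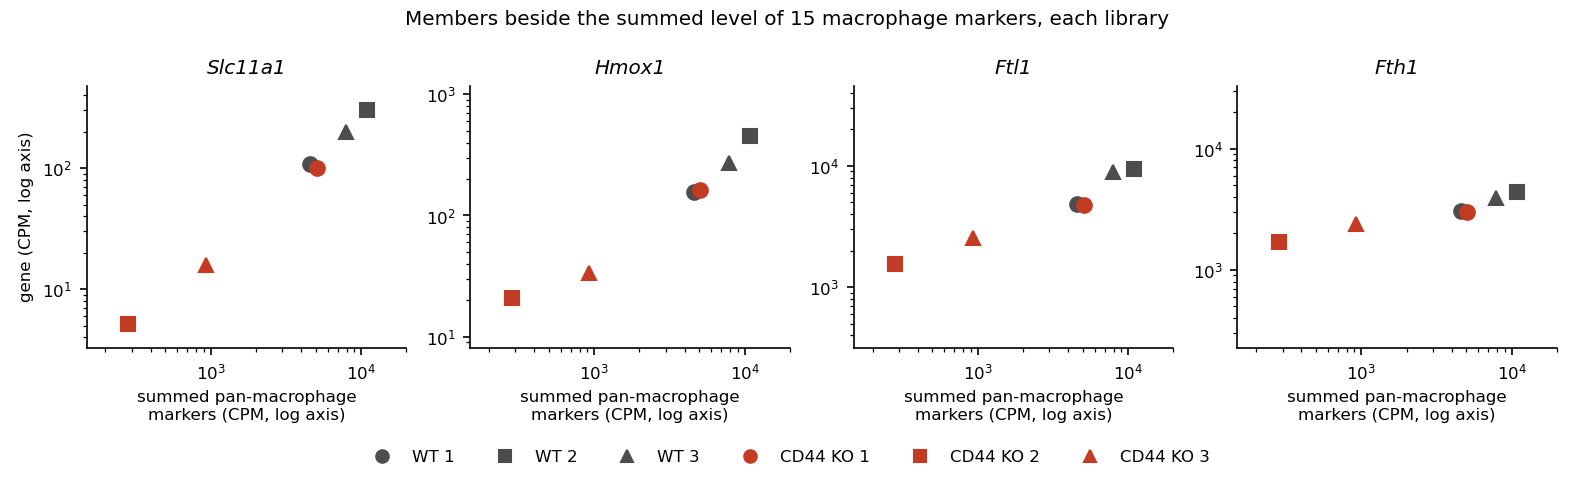
CPM of Slc11a1, Hmox1, Ftl1 and Fth1 (vertical, log axis) beside the summed CPM of 15 pan-macrophage markers (horizontal, log axis) in each of 6 libraries, wild type dark and CD44-KO red, all panels with vertical axes of the same span. Wild type replicate 1 and CD44-KO replicate 1 fall almost on each other in each panel, Slc11a1 spans 58.7-fold and Fth1 2.58-fold.

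Tfrc (ENSMUSG00000022797, plus strand of chromosome 16 from 32608920 to 32632794), the transferrin receptor gene with the 4 hairpins printed above, stood at 27, 41.1 and 21.7 CPM in the wild type libraries, against 57.0, 33.0 and 45.5 in the knockouts. CD44-KO replicate 2 fell between the wild type libraries and the other 2 were above them. The 1.51-fold difference (95% interval 0.911 to 2.50, log2 0.59, SE 0.30) did not pass, at an edgeR adjusted p of 0.225, and passed under none of the 13 alternatives.

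The level of Tfrc relative to ferritin heavy chain was nearly the same in all 3 knockout libraries. Fth1 FPKM was 625, 592 and 1016 times Tfrc FPKM in the wild type libraries, against 284, 289 and 284 times in the knockouts. The genotypes did not overlap, and the knockout libraries lay within a narrow band although their Fth1 and Tfrc levels each varied. The log2 ratio of Tfrc to Fth1 was higher by 1.34 in CD44-KO (-9.49 ± 0.43 in wild type, -8.16 ± 0.01 in CD44-KO, SD, n = 3). That is 2.53-fold, with an exact two-sided permutation p of 0.1, the smallest that 3 against 3 libraries allow. With 1 library left out the difference ran from 1.09 to 1.48, so it did not rest on CD44-KO replicate 1 or on any other single library. Tfrc FPKM was 1.3, 1.38 and 0.837 times Slc40a1 FPKM in the wild type libraries, against 2.01, 1.68 and 1.43 times in the knockouts, a log2 difference of 0.56 (exact two-sided permutation p = 0.1). Over the 3 ratios tested, the Benjamini-Hochberg adjusted values of these exact permutation tests were 0.15 for both Tfrc ratios and 0.2 for the ferritin chains.

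**Figure D4:**
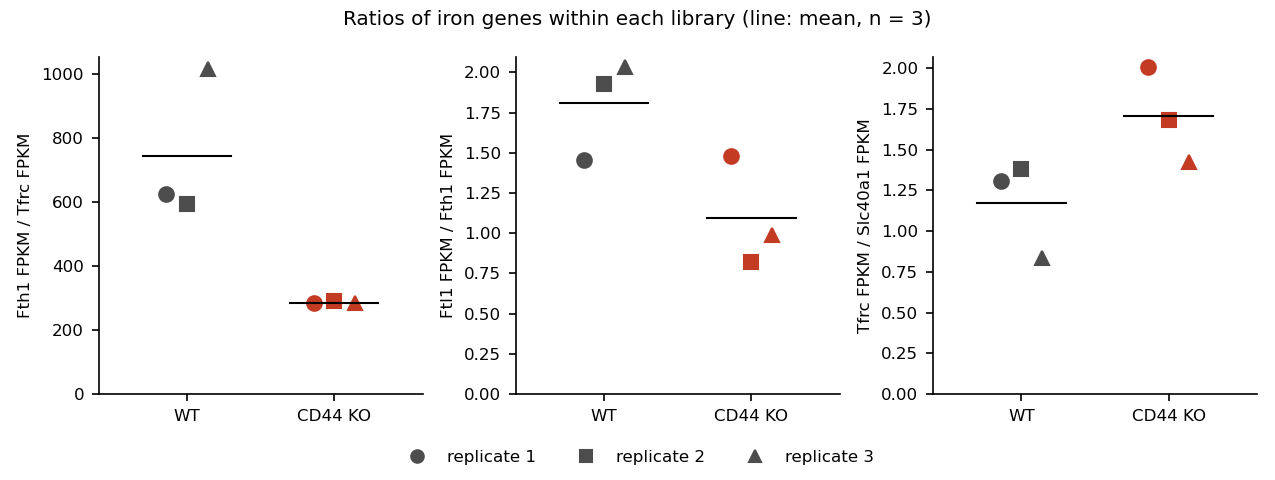
Ratios of FPKM within each library, with linear axes from 0, points for the 3 libraries of each genotype and lines for their means: Fth1 over Tfrc, Ftl1 over Fth1 and Tfrc over Slc40a1. Fth1 over Tfrc is 592 to 1016 in wild type and 284 to 289 in CD44-KO, and Ftl1 over Fth1 of CD44-KO replicate 1 lies at 1.48 with the wild type libraries.

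Slc11a2 (ENSMUSG00000023030, minus strand of chromosome 15 from 100387898 to 100425072) encodes the divalent metal transporter that passes iron out of the endosome, and it has alternative first exons and alternative 3′ ends with and without an iron-responsive element. Its level was 29.1, 47.6 and 37.8 CPM in the wild type libraries, against 29.2, 39.4 and 26.3 in the knockouts, with overlapping genotypes. The log2 fold change was -0.27 (SE 0.24, edgeR adjusted p 0.462). In FPKM the difference was larger: 10.2, 16.7 and 14.7 in wild type against 10, 10.9 and 8.07 in the knockouts. The authors' deposited table lists a log2 fold change of -0.52, that of the mean FPKM, with an adjusted p of 0.583. The unadjusted p listed there, 0.318, equals that of the DESeq2 Wald test on counts, where the estimate was -0.30. It thus does not test the -0.52. The gap between CPM and FPKM comes from the assigned length and from the TMM scaling, which the FPKM lack. The assigned length was 2890, 2859 and 2628 bases in the wild type libraries, against 2952, 3374 and 3245 in the knockouts. Every knockout length was above every wild type length, though that of CD44-KO replicate 1 only narrowly. How many other genes differ in this way was not examined. Counts per transcript were not analysed here.

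In the authors' deposited table, 12% of the listed genes had an adjusted p under 0.05, and 5 of the 10 members were among them. These were Cp, Hephl1, Ftl1 (0.0242), Heph (0.0305) and Hmox1 (0.044), while Slc11a1 (0.054) and Fth1 (0.0765) were not, all per the authors' deposited table. DESeq2 on the same counts called 19.7% of genes and 6 of the members, adding Slc11a1 (adjusted p 0.0445).

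A wider list of 67 genes of iron and haem handling was read beside the members. The table held 66 of them and 60 were tested, of which edgeR called 2 higher and 2 lower, beside 1.74% and 0.882% of all genes. At an unadjusted p under 0.05 there were 11 higher and 12 lower, beside 31% of all genes in either direction. Their median log2 fold change was 0.18, beside 0.03 over all genes, and 25 (beside 37.8% of all genes) did not overlap between genotypes. By role, the calls fell on uptake (1 higher and 1 lower of 13), regulators (1 higher of 11) and haem movement (1 lower of 12). None was called among 3 genes of ferritin turnover (0 at an unadjusted p under 0.05), 9 of haem synthesis (1 higher) or 12 of mitochondrial iron and iron-sulfur clusters (3 higher and 2 lower).

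Among uptake genes, Steap2, a metalloreductase that reduces iron for transport, rose. It stood at 3.66, 3.93 and 4.38 CPM in the wild type libraries, against 13.8, 12.4 and 17.6 in the knockouts, a log2 difference of 1.87 (SE 0.22, edgeR adjusted p 0.0266). Tfr2, the second transferrin receptor, fell. It stood at 31.6, 15.2 and 32.2 CPM in the wild type libraries, against 3.62, 0.781 and 2.46 in the knockouts, a log2 difference of -3.52 (SE 0.60, edgeR adjusted p 0.0438). Tfr2 and Tfrc thus had estimates of opposite sign, and only that of Tfr2 passed; the difference between them was not tested. Slc22a17, a receptor for lipocalin 2, had a log2 fold change of 1.24 (edgeR adjusted p 0.1).

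Aco1, the cytosolic aconitase that serves as iron regulatory protein 1 when it lacks its iron-sulfur cluster, rose. It stood at 168, 143 and 133 CPM in the wild type libraries, against 278, 337 and 366 in the knockouts, a log2 difference of 1.14 (SE 0.18, edgeR adjusted p 0.0397). Every knockout library was above every wild type one. Ireb2, which encodes iron regulatory protein 2 and was chosen after its value was seen, had a log2 fold change of 0.00 (SE 0.17). Hfe, a partner of the transferrin receptors, and Neo1, which binds the hepcidin regulator hemojuvelin, stood at -1.61 and 1.12 (edgeR adjusted p 0.0596 and 0.0557). The hepcidin gene Hamp, also chosen after its values were seen, had 0 counts in all 3 wild type libraries and in CD44-KO replicate 1, 4 in CD44-KO replicate 2 and 38 in CD44-KO replicate 3, the order in which hepatocyte markers stood.

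Of the haem genes, Slc48a1, which carries haem out of the phagolysosome, fell. It stood at 478, 483 and 477 CPM in the wild type libraries, against 247, 197 and 205 in the knockouts, a log2 difference of -1.15 (SE 0.17, edgeR adjusted p 0.0337). Wild type libraries were nearly equal, and all 3 knockouts lay below them. All 3 macrophage lists given above had lower sums in CD44-KO replicates 2 and 3. In replicate 1 the resident list did too, the lipid-associated list only with Lpl and Ctsd counted, and the pan-macrophage list did not. The part of these lists in the Slc48a1 result was not tested. The haem exporter gene Flvcr1 and its relative Flvcr2 had log2 estimates of -1.56 and 2.69 (edgeR adjusted p 0.0929 and 0.0626), the latter from 0.698 ± 0.526 CPM in wild type. In haem synthesis, Alad, the enzyme that makes porphobilinogen, stood at 1.94 (edgeR adjusted p 0.0633), and Ppox and Fech, which act at its end, at 0.37 and 0.21. The mitochondrial iron importer gene Slc25a37 and the transporter gene Abcb10 stood at -0.55 and 0.47, and Isca1 of iron-sulfur cluster assembly at 0.60 (edgeR adjusted p 0.106, 0.117 and 0.114). Of ferritin turnover, Ncoa4, which brings ferritin to lysosomes, stood at 0.38 (edgeR adjusted p 0.163), and the iron chaperone genes Pcbp2 and Pcbp1 at 0.19 and 0.02.

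None of these 4 calls held in all 6 fits with 1 library left out. Steap2 lost its call without wild type replicates 2 or 3 or CD44-KO replicate 3 (edgeR adjusted p 0.123, 0.189 and 0.0901). Aco1 lost it without the same libraries (0.151, 0.236 and 0.129) and without CD44-KO replicate 2 (0.0782). Slc48a1 and Tfr2 kept theirs only without CD44-KO replicate 1, with edgeR adjusted p of 0.0525 to 0.221 and 0.0547 to 0.236 in the other 5 fits. Tfr2 also missed the threshold when no filter on low counts was used (0.0539). The log2 fold changes themselves ran from 1.71 to 1.97 for Steap2, 1.05 to 1.26 for Aco1, -1.25 to -1.08 for Slc48a1 and -4.03 to -3.11 for Tfr2. Other genes of the wider list gained a call when 1 library was left out. Without wild type replicate 1, Slc22a17 stood at 1.75 and Flvcr2 at 3.50 (edgeR adjusted p 0.0444 and 0.0438). Without CD44-KO replicate 1, Neo1 stood at 1.28, Hfe at -1.79, Flvcr1 at -2.11 and Alad at 2.17 (edgeR adjusted p 0.0241, 0.0378, 0.0257 and 0.0274).

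**Figure D5:**
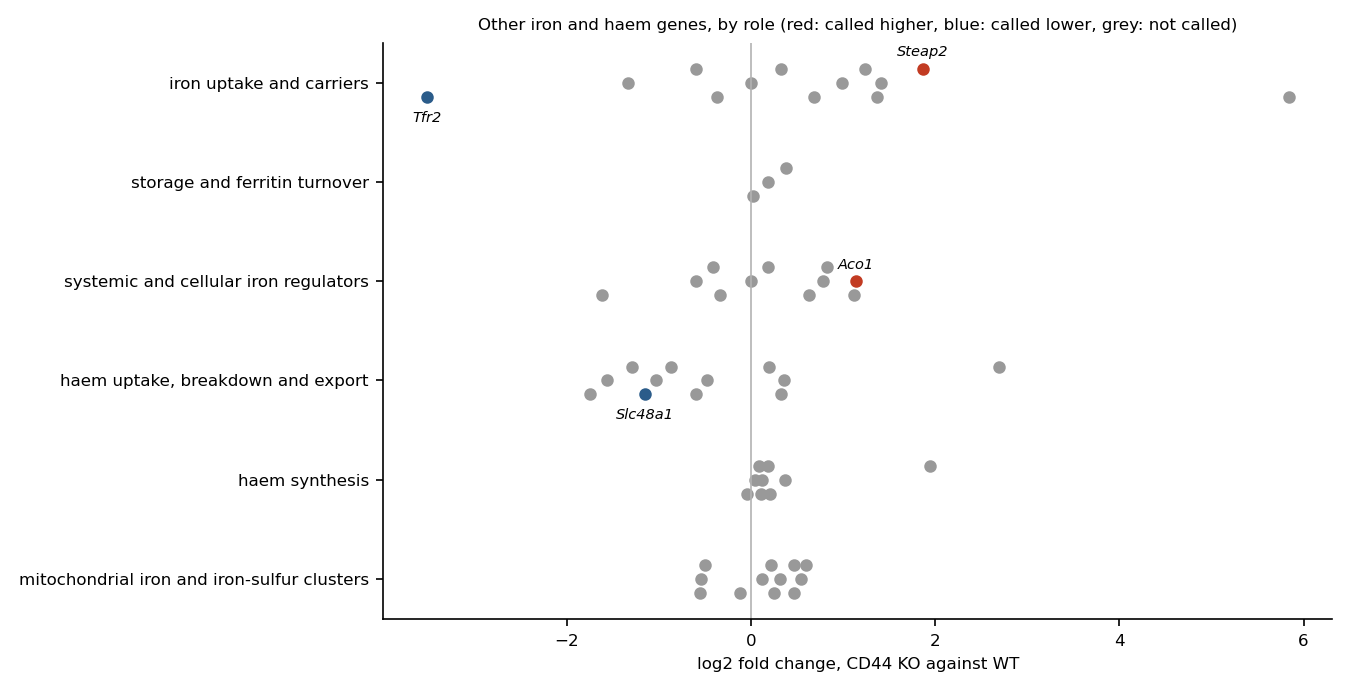
Log2 fold change of CD44-KO against wild type for the 60 tested genes of the wider iron and haem list, 1 point per gene in rows by role, jittered vertically only for legibility. The 2 genes called higher (Steap2 and Aco1, red) and the 2 called lower (Tfr2 and Slc48a1, blue) are labelled, and 8 of the 9 genes of haem synthesis lie above 0.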

How the data were processed

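The 10 members, the wider iron and haem list and the marker lists were chosen with earlier results of these data known. Per the labels, mRNA was enriched with oligo(dT) beads, and NEBNext Ultra libraries were run on a NovaSeq 6000 instrument. The submitters' processing notes list DESeq2, HISAT2, RSEM and StringTie 1.3.1, giving no role, and the genome build is not given in the sources used here. The authors deposited expected counts (estimated counts, 7.57% to 8.3% not whole) and FPKM per gene and library. A second deposited table gives the authors' log2 fold change, p-values and mean FPKM. Of the listed identifiers 99.75% matched GENCODE M21, which supplied positions.

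After rounding, these counts went into edgeR 4.0.16 under R 4.3.3 (filterByExpr, TMM, robust glmQLFit, glmQLFTest, Benjamini-Hochberg adjustment). SE is the absolute log2 fold change over the square root of F, and 95% intervals use the test's moderated degrees of freedom. Alternatives used DESeq2 1.42.0, limma 3.58.1 and refits. The fit was also run on simulated counts, drawn independently for each gene with the same dispersion (spread between replicates) for every gene. That setting lacks the shared spread of cell type markers seen between these libraries. The run therefore does not bear on how far the calls depend on single libraries. Named by rule were all 10 members, Cd44, and of each wider list every called gene and the 3 of lowest p. Ireb2, Hamp and single genes of the marker lists were named outside that rule. Precision is limited by 3 libraries a group.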

Additional observations from a re-analysis of the deposited data

How the results depend on the processing

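Over 13 alternatives each, the log2 fold changes of the 10 members gave 130 values, of which 111 kept direction and side of the threshold, 8 lost the call, 7 gained one and 4 changed sign. The 4 were all Slc40a1: -0.0039 and -0.00017 by limma on log2(FPKM + 0.1) and log2(FPKM + 1), and -0.10 and -0.06 without CD44-KO replicate 3 or wild type replicate 1 (range -0.10 to 0.24 over single libraries left out). Pcbp1 turned likewise to -0.0031 by DESeq2, -0.024 and -0.023 by limma, and -0.0071 and -0.0022 without CD44-KO replicate 3 or wild type replicate 1 (range -0.0071 to 0.053). On log2(FPKM + 0.1) and log2(FPKM + 1) Hephl1 stood at -3.31 and -1.17, since a pseudocount understates low genes. The 3 ratios moved by less than 1 SD under every alternative run.

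By DESeq2 the genes called were 1487 higher and 1459 lower (240 and 122 by edgeR), 2 and 4 of the members (1 and 1 by edgeR) and 6 and 8 of the wider list (2 and 2 by edgeR). Without a filter on low counts 145 genes were called higher and 1 wider gene lower, and limma called 206 and 203 genes lower with pseudocounts of 0.1 and 1. With 1 library left out the counts ran from 0 to 1007 higher and from 0 to 1363 lower over all genes, from 0 to 1 and from 0 to 4 of the members, and from 0 to 5 and from 0 to 8 of the wider list. The highest came without CD44-KO replicate 1, and the fit without wild type replicate 3 called 0 and 0 (1275 higher and 1111 lower at an unadjusted edgeR p under 0.05).

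The labels do not say whether the replicate numbers pair the libraries. Deviations of same-numbered libraries correlated at -0.32, -0.22 and -0.02, which with 3 libraries a group cannot settle it. With the replicate number as a block, edgeR called 0 genes higher and 0 lower over all genes (1585 and 1220 at an unadjusted p under 0.05), 0 and 0 of the members (2 and 1) and 0 and 0 of the wider list (8 and 9). The cause of these shifts was not tested.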
